A study of Oryza sativa with 200 samples.

Results

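Os01g0780900 is a gene of rice chromosome 1 whose RNA was plentiful in the leaves of some lines of a breeding population and missing from the leaves of others. Lines were selected on its level in CPM, the reads counted for a gene per 1000000 reads counted in its library. A line was called on at 2 CPM or more in both years and off under 0.2 CPM in both years. Of the 100 lines, 75 were on, 25 were off and 0 fell in neither class. The on lines gave 150 of the 200 libraries and the off lines gave 50.

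The lines belong to JAM2, a population derived from 4 parents, the varieties Akidawara, Iwaidawara, Tachiharuka and Toyomeki. Both classes were sampled in generation F5 on 1 July 2022 and in generation F6 on 29 June 2023, 6 weeks after transplanting and in the morning. All 200 libraries came from plants grown with chemical fertilizer. Each line stood in 1 unreplicated plot of 33 plants with 56 kg of nitrogen per ha, and gave 1 leaf library per year. P-values therefore measure the spread between lines, and plot and line cannot be told apart within a year. The parents were not analysed here, so neither class is assigned to a parent.

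In such a population each line inherits long stretches of chromosome from one parent or another, so genes that lie close together tend to come from the same parent. Parents can differ in whether a gene is present, in how strongly it is transcribed, or in its sequence. A gene with no reads in a line may be absent, silent, or too different from the reference for its reads to align uniquely, and these counts cannot tell these apart. The number inside a rice locus name rises along the chromosome, and the difference between 2 such numbers is used here as a measure of distance without a physical unit. In a bulk leaf sample, fewer cells of a type and less RNA per cell cannot be told apart either.

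Os01g0780900 itself was far above the upper limit of the rule in every on line. On lines held 39.5 to 117 CPM in 2022, with a median of 71.9, and off lines held 0 CPM in 24 lines and 0.165 CPM, a count of 1, in the remaining line. In 2023 on lines held 21.2 to 88.9 CPM, with a median of 63.8, and all 25 off lines had 0 counts. A count of 0 over the off lines of 2023 allows a level of up to 0.0104 CPM, from counting error alone. The lowest on lines of 2023 stood at 21.2 and 30.8 CPM, so no line came near the limit of 2 CPM. The off line with 1 count lay close under the lower limit, and with limits of 1 CPM and 0.1 CPM it fell in neither class. These values chose the classes and are given with no test. Among the on lines, levels in 2022 and 2023 were only loosely related, with a Pearson r of 0.20 and a Spearman rho of 0.17 over 75 lines, and an r of 0.18 without the 2 lines farthest from the median.

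**Figure D1:**
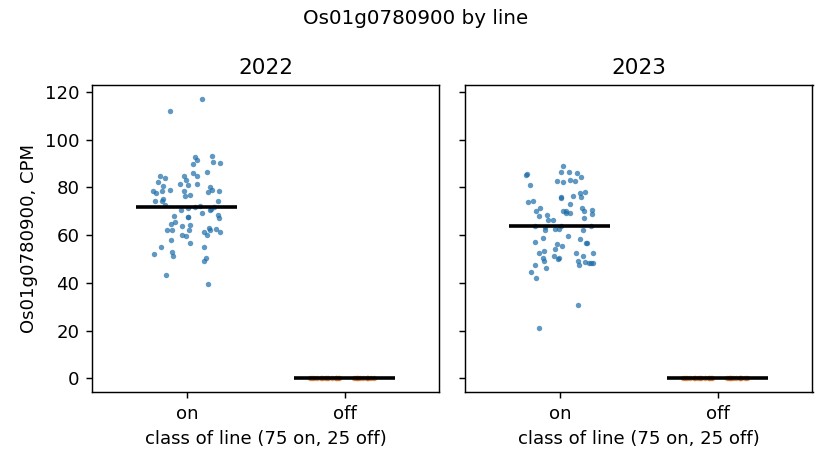
Level of Os01g0780900 in CPM (vertical axis) in each line, on lines left and off lines right, for 2022 and 2023. Points are lines and bars are medians; the medians of the on lines are 71.9 CPM in 2022 and 63.8 CPM in 2023, and every off line lies at or near 0.

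The classes did not differ detectably in sequencing depth. Library totals were 3254834 to 37774023 counts in on lines and 4003193 to 33419086 counts in off lines in 2022, and 3729294 to 16881699 counts in on lines and 3842364 to 16145729 counts in off lines in 2023. Median totals and median column positions gave an adjusted p of 0.934 in each of 4 comparisons (two-sided permutation test, Benjamini-Hochberg adjustment). Of the 30 deepest 2022 libraries, 22 came from on lines and 8 from off lines. GS2, the plastid glutamine synthetase of green leaves, held 2742 ± 338 CPM in on lines and 2728 ± 351 CPM in off lines in 2022 (SD, n = 75 on and 25 off lines). Markers of other tissues did not pass the test between the classes: 0 of 3 (OsMADS1 of the panicle, PCNA of dividing tissue and LSI1 of the root) were called in either year. Their log2 differences lay between 0.06 and 0.20 in 2022 and between -0.01 and 0.15 in 2023. For OsMADS1 the SE was 0.47 in 2022 and 0.46 in 2023. Over all genes only 0.0636% were called in 2022 and 0.101% in 2023, so 0 of 3 says little about the tissue make-up of the samples.

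Among genes with enough counts to pass the filter, few were called between on and off lines, and most of those lay near Os01g0780900. With the edgeR quasi-likelihood test and Benjamini-Hochberg adjustment over all genes, called at an adjusted p under 0.05, 12 of 18882 genes other than Os01g0780900 were called in 2022, which is 0.0636% of those tested. In 2023, 20 of 19778 were called, which is 0.101%. The lines were the same in both years but leaves, generation and libraries were not, and 11 genes were called in both years in the same direction, which is 0.0585% of 18800 tested in both. In all, 21 genes were called in at least 1 year, 19 of them on chromosome 1, and each of those 19 lay within 100000 locus numbers of Os01g0780900. Without the filter on low counts more genes were called, and more of them elsewhere: of 29 in 2022, 17 lay within 100000 locus numbers and 10 on other chromosomes, and of 40 in 2023, 20 lay within 100000 locus numbers and 19 on other chromosomes.

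Within 100000 locus numbers, 11 of 792 tested genes were called in 2022, 8 higher and 3 lower in on lines. In 2023, 18 of 835 were called there, 9 higher and 9 lower in on lines. Both years shared 10 of these calls, 7 higher and 3 lower in on lines. The median absolute log2 difference of genes in this stretch was 0.059 in 2022 and 0.064 in 2023, against 0.047 and 0.051 on the other chromosomes. In the stretch 114 genes in 2022 and 132 in 2023 had an unadjusted p under 0.05 with edgeR, which is 14.39% and 15.81%. Without the lines of the 30 deepest 2022 libraries, 6 genes in place of 10 were called in both years. That setting left out 22 on lines and 8 off lines, so wherever it is given here it compares fewer lines. Farther along chromosome 1, edgeR called 0 of 1874 genes in 2022 and 0 of 1970 in 2023, and 58 and 106 had an unadjusted p under 0.05, which is 3.09% and 5.38%. DESeq2, run as another tool, also called 0 of these in both years. Without the filter 2 genes were called there in 2022 and 1 in 2023. With class limits of 1 CPM and 0.1 CPM, 1 gene was called there in 2023.

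Calls were densest beside Os01g0780900. Of 18 genes tested in both years within 2500 locus numbers, 5 were called in both years, or 27.8%. From there to 10000 locus numbers 1 of 53 was called in both years, from 10000 to 50000 it was 3 of 310, and from 50000 to 100000 it was 1, or 0.243%.

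**Figure D2:**
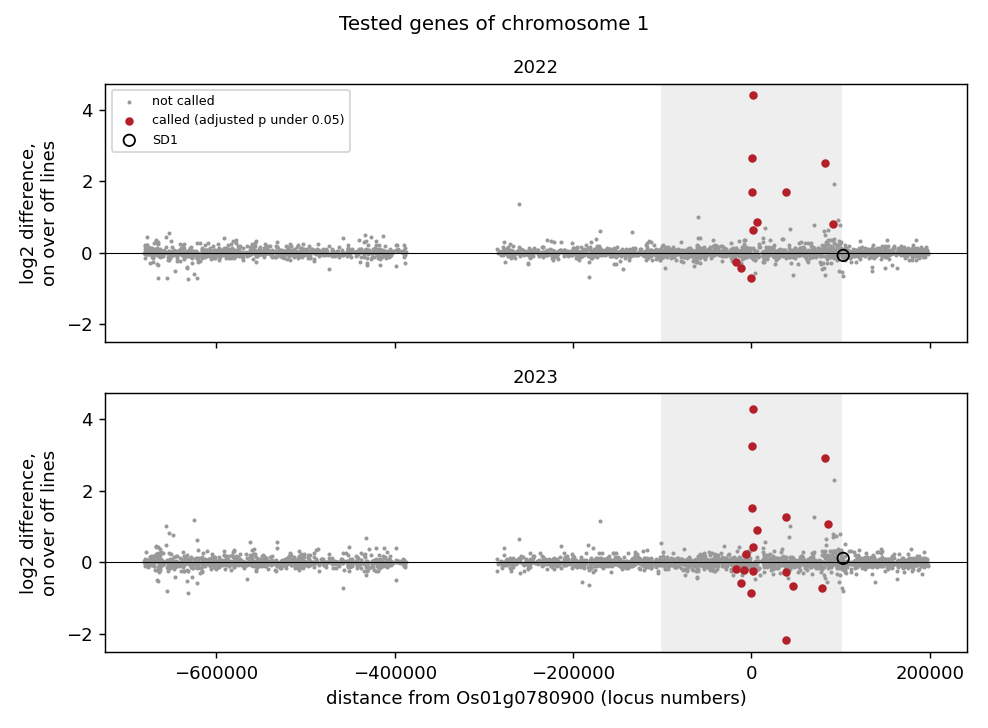
Log2 difference, on over off lines (vertical axis), of each tested gene of chromosome 1 by its distance from Os01g0780900 in locus numbers (horizontal axis), 2022 above and 2023 below; Os01g0780900 itself is left out. Red points are called genes, 11 in 2022 and 18 in 2023, all inside the grey stretch of 100000 locus numbers to either side; SD1 is ringed.

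The gene whose level followed the classes most closely was Os01g0782100, which lies 1200 locus numbers beyond Os01g0780900 and was higher in on lines. On lines held 6.57 to 28.3 CPM in 2022, with a median of 16.8, and off lines held 0.208 to 1.65 CPM, with a median of 0.684. In 2023 on lines held 5.24 to 28.6 CPM, with a median of 15.9, and off lines held 0.203 to 1.82 CPM, with a median of 0.803. Each of the 75 on lines lay above each of the 25 off lines in both years, so this gene, which the selection did not use, separated the classes completely. The log2 difference was 4.40 (SE 0.14, adjusted p = 5.4e-50) in 2022 and 4.28 (SE 0.14, adjusted p = 1.1e-48) in 2023. Unlike Os01g0780900, every off line had counts, 244 in all in 2022 and 230 in 2023.

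Os01g0781100, 200 locus numbers beyond Os01g0780900, was also higher in on lines, at a low level. On lines held 0.307 to 5.15 CPM in 2022, with a median of 1.91, and off lines held 0 to 0.967 CPM, with a median of 0.252. In 2023 on lines held 0.856 to 4.12 CPM and off lines 0 to 0.564 CPM. The classes did not overlap in 2023, and in 2022 71 of the 75 on lines stood above every off line. It differed by 2.64 on the log2 scale (SE 0.19, adjusted p = 7.7e-21) in 2022 and 3.27 (SE 0.16, adjusted p = 4.9e-34) in 2023.

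Os01g0781200, 100 locus numbers farther, stood about 3 times higher in on lines. Its level was 5.20 to 26.6 CPM in on lines, with a median of 18.2, and 3.99 to 8.32 CPM in off lines, with a median of 5.45, in 2022. In 2023 it was 9.39 to 24.9 CPM in on lines, with a median of 15.2, and 0.820 to 10.1 CPM in off lines, with a median of 5.44. Above every off line stood 74 on lines in 2022 and 72 in 2023. The fold differences were 3.22 and 2.89 (log2 1.69, SE 0.08, adjusted p = 6.2e-34, and log2 1.53, SE 0.09, adjusted p = 3.7e-29).

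Os01g0782200, next to Os01g0782100, was higher in on lines by a smaller margin and with overlap. On lines held 10.8 to 29.7 CPM and off lines 8.87 to 17.3 CPM in 2022, and on lines held 13.1 to 28.7 CPM and off lines 10.4 to 20.3 CPM in 2023. No off line reached the median of the on lines in 2022, which was 17.9 CPM, and 1 off line reached that of 2023, which was 19.7 CPM. Its log2 difference was 0.63 (SE 0.07, adjusted p = 3.5e-12) in 2022 and 0.43 (SE 0.06, adjusted p = 3.5e-06) in 2023.

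On the other side, Os01g0780800, 100 locus numbers before Os01g0780900, was lower in on lines. It held 2.84 to 10.9 CPM in on lines, with a median of 5.61, and 6.34 to 14.5 CPM in off lines, with a median of 9.06, in 2022. In 2023 it held 3.69 to 10.3 CPM in on lines, with a median of 6.35, and 8.63 to 14.1 CPM in off lines, with a median of 10.6. Every off line lay above the median of the on lines in both years, and the classes overlapped. Its log2 difference was -0.71 (SE 0.09, adjusted p = 1.6e-08) in 2022 and -0.84 (SE 0.07, adjusted p = 7.3e-17) in 2023. Without the lines of the 30 deepest 2022 libraries it was -0.53 in 2022, with an adjusted p of 0.062 by the same test.

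Os01g0781000, which lies between Os01g0780900 and Os01g0781100, did not pass the test. Its level was 17.7 ± 2.92 CPM in on lines and 18.9 ± 2.72 CPM in off lines in 2022, and 17.3 ± 2.19 CPM in on lines and 17.5 ± 2.83 CPM in off lines in 2023 (SD, n = 75 on and 25 off lines). The log2 difference was -0.08 in 2022, with a 95% interval of -0.18 to 0.03, and -0.04 in 2023, with an interval of -0.13 to 0.05. It lay between genes with far larger differences, Os01g0780900 by the selection and Os01g0781100 by test.

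**Figure D3:**
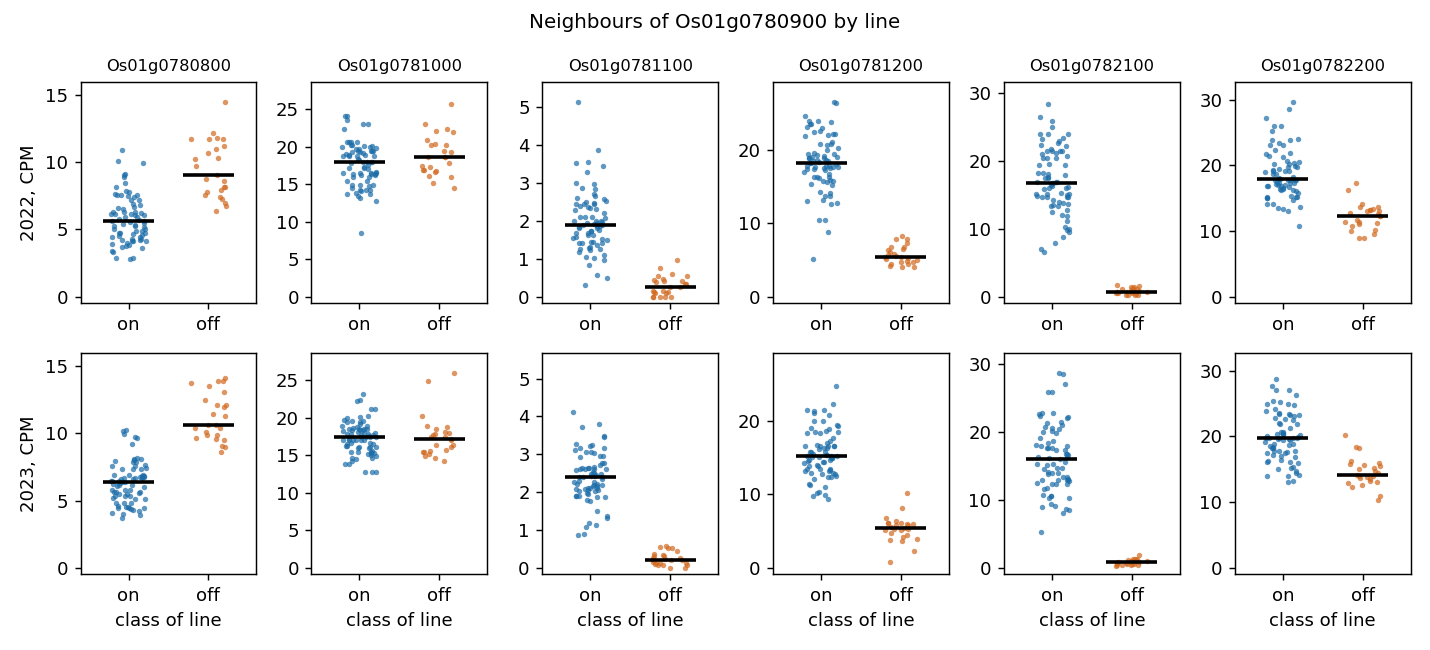
Level in CPM (vertical axes) of the 5 genes within 2500 locus numbers called in both years and of Os01g0781000, in on lines (left in each panel) and off lines (right), 2022 above and 2023 below. Points are lines and bars are medians; Os01g0782100 separates the classes in both years, while Os01g0781000 has medians of 18.0 CPM in on lines and 18.6 CPM in off lines in 2022.

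There were 33 annotated loci within 2500 locus numbers besides Os01g0780900. Of these 15 were not tested in both years because of low counts, and 14 of the 15 averaged under 0.2 CPM in both classes and years. The exception was Os01g0781700, which had 561 counts over the on lines and 3 over the off lines in 2022, and 0 over the off lines in 2023. Its mean in on lines was 0.612 CPM in 2022 and 0.460 CPM in 2023. It had at least 1 count in 71 on lines and 3 off lines in 2022, and in 69 on lines and 0 off lines in 2023. Tested without the filter, it was called higher in on lines in both years (edgeR, adjusted p = 1.7e-18 and 1.2e-16). Os01g0782500 was lower in on lines in 2023 alone, at 19.2 ± 3.10 CPM in on lines and 22.1 ± 2.88 CPM in off lines (log2 -0.23, SE 0.05, adjusted p = 0.0058 with edgeR). In 2022 it averaged 22.7 ± 4.74 CPM in on lines and 25.8 ± 5.07 CPM in off lines, which did not pass. The 2023 call was lost without the lines of the 30 deepest 2022 libraries (adjusted p = 0.146).

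Farther out, Os01g0787400 was higher in on lines on average, and the on lines themselves fell apart into high and low lines. Its level was 7.33 to 46.7 CPM in on lines and 8.28 to 17.0 CPM in off lines in 2022, and 9.14 to 54.9 CPM in on lines and 9.11 to 16.1 CPM in off lines in 2023. In both years 28 on lines stood above every off line, at 22.7 to 46.7 CPM in 2022 and 26.8 to 54.9 CPM in 2023. The other 47 on lines held 7.33 to 22.2 CPM in 2022 and 9.14 to 17.1 CPM in 2023, within or close to the range of the off lines. The log2 difference between the classes was 0.85 (SE 0.19, adjusted p = 0.019) in 2022 and 0.91 (SE 0.20, adjusted p = 0.013) in 2023, and it was not called in either year without the lines of the 30 deepest 2022 libraries (0.74 and 0.86).

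Os01g0819700 was higher in on lines, with wide overlap. On lines held 0 to 10.3 CPM, with a median of 4.64, and off lines 0.250 to 5.82 CPM, with a median of 0.928, in 2022. In 2023 on lines held 0.614 to 17.2 CPM, with a median of 5.82, and off lines 0.411 to 9.56 CPM, with a median of 1.87. On the log2 scale it differed by 1.70 (SE 0.22, adjusted p = 1.5e-08) in 2022 and 1.28 (SE 0.21, adjusted p = 3.8e-05) in 2023. In each year 2 off lines stood at or above the median of the on lines, and 1 of them did so in both.

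Os01g0863100, 82200 locus numbers away, was present or near 0 within both classes. At least 1 CPM in both years was found in 49 of 75 on lines and 3 of 25 off lines, and under 0.2 CPM in both years in 18 on lines and 17 off lines. Medians were 2.76 CPM in on lines and 0.060 CPM in off lines in 2022, and 2.83 CPM in on lines and 0 CPM in off lines in 2023. The log2 difference was 2.51 (SE 0.51, adjusted p = 0.0063) in 2022 and 2.93 (SE 0.54, adjusted p = 6.1e-04) in 2023. Without the lines of the 30 deepest 2022 libraries it was 1.67 and 2.34, not called in either year. The 3 off lines at 1 CPM or more held 0.274 to 1.36 CPM of Os01g0819700 in 2022 and 0.720 to 1.50 CPM in 2023, all below the medians of the on lines for that gene.

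**Figure D4:**
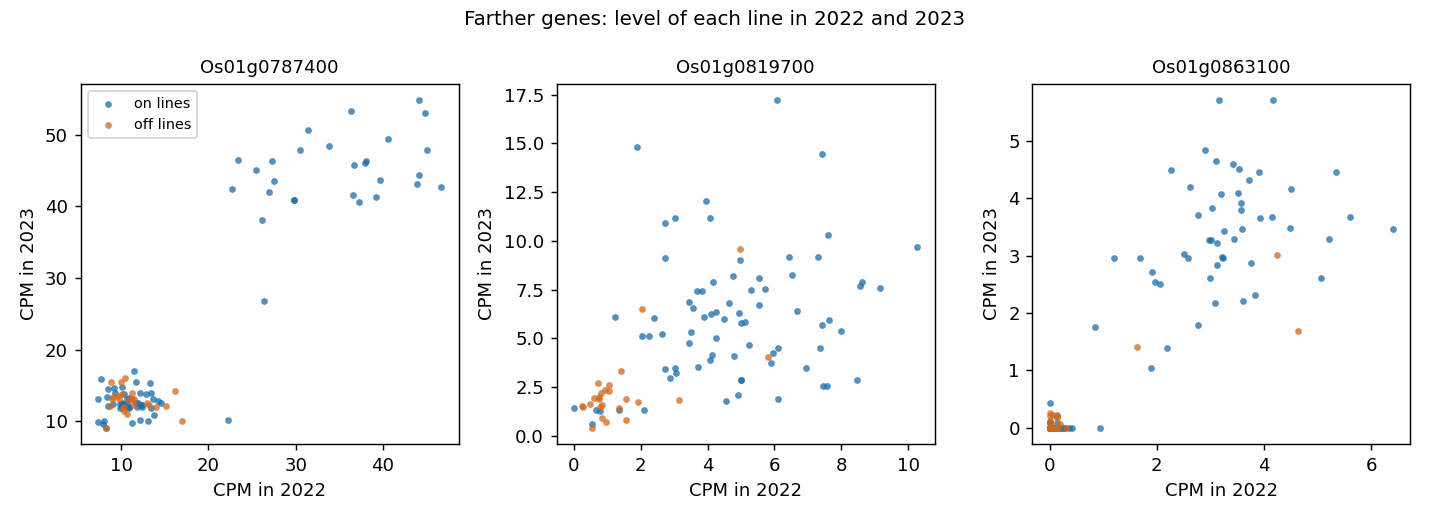
Level in 2023 (vertical axes, CPM) against level in 2022 (horizontal axes, CPM) of 3 farther genes called in both years; each point is a line, on lines blue and off lines orange. For Os01g0787400, 28 on lines form a group above all off lines, and for Os01g0863100 3 off lines stand among the on lines at 1 CPM or more.

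On the side of lower locus numbers, Os01g0769700 and Os01g0763600 were lower in on lines in both years by small amounts. Os01g0769700 held 7.94 ± 1.96 CPM in on lines and 10.8 ± 2.01 CPM in off lines in 2022, and 9.85 ± 3.30 CPM in on lines and 14.4 ± 3.03 CPM in off lines in 2023 (log2 -0.43, SE 0.07, adjusted p = 1.1e-04, and -0.58, SE 0.09, adjusted p = 2.6e-05). Os01g0763600 held 30.8 ± 3.76 CPM in on lines and 37.4 ± 4.88 CPM in off lines in 2022, and 25.8 ± 3.08 CPM in on lines and 29.0 ± 4.09 CPM in off lines in 2023 (log2 -0.26, SE 0.04, adjusted p = 8.4e-08, and -0.18, SE 0.03, adjusted p = 4.2e-04). The 2023 call of Os01g0763600 was lost with library totals in place of TMM (adjusted p = 0.056) and without the lines of the 30 deepest 2022 libraries (adjusted p = 0.153). The classes overlapped for both genes. At or below the median of the on lines stood 2 off lines in 2022 and 1 in 2023 for Os01g0769700, and 4 in 2022 and 2 in 2023 for Os01g0763600.

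The remaining genes of the stretch were called in 1 year by edgeR with the filter and are named after their values were seen. Os01g0819400, 300 locus numbers before Os01g0819700, was called in 2023 and was too low to be tested in 2022. It held 0.295 ± 0.386 CPM in on lines and 1.40 ± 0.534 CPM in off lines in 2023 (log2 -2.18, SE 0.26, adjusted p = 1.6e-09), and 0.269 ± 0.404 CPM in on lines and 1.11 ± 0.772 CPM in off lines in 2022. Tested without the filter, it was called in both years (log2 -1.95 in 2022, adjusted p = 2.0e-05). Its neighbour Os01g0819500 had a log2 difference of -0.28 (adjusted p = 4.8e-05) in 2023 and -0.14 in 2022. So 3 loci at this place were called in 2023, 2 of them lower and 1 higher in on lines.

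Os01g0772200, Os01g0827400 and Os01g0860400 were lower in on lines in 2023, with log2 differences of -0.21, -0.66 and -0.73, and Os01g0775200 and Os01g0867300 were higher, with 0.23 and 1.06. Os01g0872400 was higher in 2022, with 0.80. In that fit all 6 had the same sign in the other year without being called there, with log2 differences of -0.14, -0.63 and -0.45 for the 3 lower genes and 0.15, 0.65 and 0.70 for the 3 higher ones. Os01g0772200 and Os01g0872400 were called in both years with DESeq2 and with library totals, and Os01g0827400 was with column position as a covariate. Without the lines of the 30 deepest 2022 libraries, Os01g0772200 and Os01g0775200 kept their calls and the other 4 did not. A year in which a gene passed and one in which it did not were not shown to differ: the class by year term called 0 of 20337 genes with edgeR, and 708 had an unadjusted p under 0.05, which is 3.48%. That fit did not use the pairing of lines across the years. With the line as block, edgeR also called 0, and 917 genes had an unadjusted p under 0.05, which is 4.51%.

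SD1 (Os01g0883800), a gibberellin 20-oxidase of the hormone pathway that sets plant height and the gene behind semidwarf rice, lies 102900 locus numbers away and was not called. It held 14.8 to 84.4 CPM in on lines, with a median of 41.6, and 15.4 to 74.8 CPM in off lines, with a median of 45.5, in 2022. In 2023 it held 4.29 to 70.2 CPM in on lines, with a median of 18.5, and 5.55 to 70.5 CPM in off lines, with a median of 17.1. The classes overlapped almost entirely in both years. The log2 difference was -0.08 (SE 0.13, 95% interval -0.33 to 0.18, adjusted p = 1.0 with edgeR) in 2022 and 0.11 (SE 0.22, interval -0.31 to 0.54, adjusted p = 0.985) in 2023.

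No gene of the pathways examined whose name was kept was called between on and off lines. Os01g0782100, called in both years, had been planned among the named genes of the stretch as Pish. It is not among the genes counted here, since the name check did not keep that symbol. Of 49 named genes tested from lists for gibberellin, brassinosteroid, flowering, the circadian clock, nitrogen, defence and other tissues, edgeR and DESeq2 each called 0 in both years. At an unadjusted p under 0.05 with edgeR there were 0 in 2022 and 2 in 2023, OsGI (GIGANTEA of the clock, log2 -0.07) and PHYC (a phytochrome, 0.08). Over all tested genes, 0.0636% were called in 2022 and 0.101% in 2023. The shares of all genes with an unadjusted edgeR p under 0.05 were 3.72% and 5.63%. With shares this low, counts of 0 and 2 among 49 genes do not set these lists apart from other genes. The median log2 difference of the 9 gibberellin genes tested was 0.005 in 2022 and -0.004 in 2023, against 0.003 and 0.004 over all genes. Levels of SLR1, the DELLA repressor of gibberellin signalling, were 89.1 ± 12.7 CPM in on lines and 88.9 ± 11.6 CPM in off lines in 2022. The 13 flowering genes had median log2 differences of 0.02 and 0.0002, and the 7 clock genes 0.01 and -0.005. The 6 defence genes had -0.01 and 0.06, with the largest value, 0.68, for SALT, a lectin (5.57 ± 9.68 CPM in on lines and 3.40 ± 4.79 CPM in off lines in 2023). The 7 nitrogen genes had -0.004 and -0.03, and the 4 brassinosteroid genes 0.05 and 0.03. Of 7 genes planned by name inside the stretch, 3 names were kept, and 2 of those genes were tested. BRI1, the brassinosteroid receptor kinase, had log2 differences of 0.07 and 0.09. The nitrate transporter NRT2.3 had -0.25 and -0.20, and neither was called.

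On other chromosomes 1 gene was called in both years, and it rested on 1 line. Os02g0614966 held 143 CPM in 2022 and 148 CPM in 2023 in 1 off line. The other off lines reached at most 4.65 CPM in 2022 and 4.72 CPM in 2023, while on lines reached at most 10.04 CPM in 2022 and 4.70 CPM in 2023. Medians were 0.475 CPM in on lines and 0.704 CPM in off lines in 2022, and 0.443 CPM in on lines and 1.09 CPM in off lines in 2023. The log2 difference was -2.33 (adjusted p = 7.5e-04, edgeR) in 2022 and -2.74 (adjusted p = 3.6e-06) in 2023, and without that line it was -0.10 (adjusted p = 1.0) and -0.63 (adjusted p = 0.866). Os04g0278200 was called in 2023 alone, at 8.57 ± 1.33 CPM in on lines and 7.10 ± 1.47 CPM in off lines (log2 0.25, adjusted p = 0.030), and in 2022 it held 9.15 ± 1.73 CPM in on lines and 8.98 ± 1.88 CPM in off lines. Its 2023 call was lost with limits of 1 CPM and 0.1 CPM (adjusted p = 0.089) and without the lines of the 30 deepest 2022 libraries (adjusted p = 0.207).

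Other genes were themselves on or off across the lines. By the same limits, with at least 10 lines on, at least 10 off and at most 10 in neither class, there were 193 such genes, 20 of them on chromosome 1. Apart from Os01g0780900, 0 of them lay within 100000 locus numbers. The share of lines on the same side as Os01g0780900 was highest for Os11g0540600 of chromosome 11, at 73.2% of 97 classed lines, but that share depends on how many lines are on for each gene. Os11g0540600 was on in 65 of 72 classed on lines and in 19 of 25 off lines, and its class sizes alone would give 67.7%. Over the other 192 genes the share lay between 7.96 percentage points below and 9 points above the value that the class sizes give, with a median difference of 0.13 points. These shares were not tested. Os01g0782100, which separated the classes completely, does not itself count as an on/off gene, since off lines held up to 1.82 CPM of it.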

How the data were processed

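Leaf poly(A) RNA of 100 lines was sequenced in 2022 and 2023 (NEBNext Ultra II Directional libraries, per the labels). The authors deposited raw counts of unique exon reads per gene, per the labels, in 1 table per year with 37849 genes. The submitters' processing notes name the build IRGSP-1.0. Aligner and counter: not given in the sources used here. Columns of 2023 were matched to lines by the library names in the labels, and 0 columns had no sample.

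CPM used library totals over all genes. Each year was fitted with edgeR 4.0.16 in R 4.3.3 (filterByExpr by class, TMM, quasi-likelihood F test, on over off), with Benjamini-Hochberg adjustment over all tested genes. Every adjusted p given for a gene comes from these fits unless DESeq2 1.42.0 is named. SE was taken as the absolute log2 difference over the root of F, and 95% intervals are normal. Os01g0780900 was left out of all counts of called genes. The class by year term was fitted over both years. The line number names the same line in both years, so it pairs libraries by design. With the line as replicate block, the dispersion trend was estimated from every 20th tested gene by mean level. Permutation tests drew 100000 resamples. Fits were also run on simulated counts with planted changes. Those counts did not imitate on/off genes, and the outcome is not given here.

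The genes picked by rule were the marker, SD1, the 10 nearest tested loci on each side, the largest calls shared by both years, and the 10 on/off genes most like the marker. Not all of them are described above. Most of the nearest loci are left out, and those left out were not called in either year. Of the on/off genes only Os11g0540600 is described. The classes, genes and lists were chosen with earlier results of these data known. Of 63 planned list symbols, 51 were kept because the RefSeq table of assembly ASM3414082v1 lists them on the locus's chromosome in a compatible order. The other 12, Pish (Os01g0782100) among them, were not used in the lists, and unnamed genes are given by locus. CPM is not scaled by gene length, so levels are compared within a gene. No sequences were used here. Alternatives were DESeq2, library totals, no filter, class from the other year, column position, other class limits, other windows, and leaving out the lines of the 30 deepest 2022 libraries. Robust dispersions and leaving out 1 line were added after seeing the data.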

Additional observations from a re-analysis of the deposited data

How the results depend on the processing

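The calls between on and off lines were computed again under 9 other settings of the fit and 2 other windows, changing 1 choice at a time, and the class by year term under 3 settings. Depth, the relation of the years and the on/off genes were not computed again. The count of genes called in both years within 100000 locus numbers was 10 to 12 under every setting of the fit but 1. Without the lines of the 30 deepest 2022 libraries it was 6, and over the whole genome 12 genes were called in 2023. With every gene that had at least 1 count in place of the filter, 29 genes were called in 2022 and 40 in 2023, and the class by year term called 8 genes in place of 0. On other chromosomes the shared calls were 2 without the filter, 0 with DESeq2 and 0 without the off line highest for Os02g0614966, a setting chosen after seeing the data. With a window of 50000 locus numbers, 9 shared calls lay inside it and 1 lay elsewhere on chromosome 1 in place of 0. The SD1 difference of 2023 was -0.032 without the lines of the 30 deepest 2022 libraries. It was 0.27 with limits of 1 CPM and 0.1 CPM, against 0.11 in the main fit, and was not called in any of these. Os01g0763600 had -0.17 in 2023 with library totals (edgeR, adjusted p = 0.056) and -0.16 without those deep lines (adjusted p = 0.153). With the line number as replicate block, the class by year term called 0 genes, so the pairing changed no call. The cause of these shifts was not tested. Of the 11 genes called in both years, 7 kept both calls without the deep lines, 10 did so with DESeq2, with library totals and without the 1 off line, and 11 with each other setting of the fit. Classing lines from the other year alone gave every line the same class, so that setting could not move a call. Low counts limit what can be tested near Os01g0780900, where 15 of 33 loci were not tested in both years. Intervals cover the spread between lines, and the floor for a count of 0 covers counting error only.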
